A study of Mus musculus with 6 samples.

Results

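VEGF ligands and receptors, the TIE2 receptor and its ligand, endothelial junction genes and hypoxia factors were examined in the hindlimb gastrocnemius (GAS) muscles of Kvβ2 knockout (KO) and wildtype (WT) mice. The set holds 10 genes (*Vegfa*, *Vegfb*, *Kdr*, *Flt1*, *Tek*, *Angpt1*, *Pecam1*, *Cdh5*, *Hif1a* and *Epas1*), chosen by name for their function from the 37979 gene entries of the deposited table. Each name matched 1 entry. RNA-seq was done on GAS muscles of 3 WT and 3 KO male mice, 20 weeks of age and without treatment, with 1 library per mouse, numbered 1, 7 and 8 in either genotype. The KO mice carry a null allele of *Kcnab2*, which encodes the Kvβ2 subunit of voltage-gated potassium channels, on both chromosomes in the whole animal, and both genotypes came from matings of heterozygous null mice. Levels are in FPKM (fragments per kilobase of transcript, set against the mapped fragments of the library, as Cufflinks gives them), so that levels can be compared between genes.

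Blood vessel growth in muscle is driven by VEGF-A, which is released by muscle fibers and other cells and acts through the receptor VEGFR2 (*Kdr*) on endothelial cells. VEGFR1 (*Flt1*) also binds VEGF-A, with high affinity but weak signaling, and its soluble form acts as a decoy. Angiopoietin-1 (*Angpt1*) activates TIE2 (*Tek*) and keeps vessels stable, PECAM1 (CD31) and VE-cadherin (*Cdh5*) hold endothelial cells together, and HIF-1α (*Hif1a*) and HIF-2α (*Epas1*) are transcription factor subunits that are regulated by oxygen mainly at the level of the protein.

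The 250 bases upstream of the annotated start are shown for VEGF-A and for its receptors, since the results turn on the levels of this ligand and these receptors. They are RefSeq sequences of GRCm38.p6, all on the minus strand and written 5′ to 3′, at chr17:46032378-46032627 for *Vegfa*, chr5:75978456-75978705 for *Kdr* and chr5:147726012-147726261 for *Flt1*. Capitals mark ACGTG and GCGTG on either strand, the core letters of the hypoxia response element.
Vegfa: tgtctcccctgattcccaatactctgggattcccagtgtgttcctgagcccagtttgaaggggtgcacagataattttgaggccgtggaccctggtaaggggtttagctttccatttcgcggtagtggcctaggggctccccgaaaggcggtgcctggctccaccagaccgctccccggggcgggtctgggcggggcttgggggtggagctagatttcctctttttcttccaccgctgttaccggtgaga
Kdr: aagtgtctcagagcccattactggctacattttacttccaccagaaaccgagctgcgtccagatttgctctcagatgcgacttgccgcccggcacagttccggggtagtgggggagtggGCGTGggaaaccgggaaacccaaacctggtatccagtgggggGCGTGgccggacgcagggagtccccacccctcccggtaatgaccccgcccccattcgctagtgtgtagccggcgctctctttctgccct
Flt1: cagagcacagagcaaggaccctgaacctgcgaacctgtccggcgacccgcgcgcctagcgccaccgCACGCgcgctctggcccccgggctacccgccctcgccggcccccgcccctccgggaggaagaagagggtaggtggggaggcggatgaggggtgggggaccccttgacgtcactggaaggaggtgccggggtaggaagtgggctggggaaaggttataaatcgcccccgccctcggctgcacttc
The *Kdr* window held GCGTG at 2 places and the *Flt1* window at 1 place (as CACGC), while the *Vegfa* window held neither word. ACGTG was absent from the 3 windows. Of 32851 windows of this length, 16.6% held ACGTG and 28.2% held GCGTG on either strand. The letters AGGAAG, a binding word of the ETS factors of endothelial cells, stood at 2 places in the *Flt1* window and were absent from those of *Kdr* and *Vegfa*, and 29.5% of all windows held them. Such matches describe the letters only and do not show a site in use. Promoter sequences were matched for 6 of the 10 genes. Among those not shown, a second *Vegfa* start within the gene had ACGTG and GCGTG at 1 place each, and the *Vegfb* window held GCGTG. The *Hif1a* window, which also lay within its annotated gene, held ACGTG.

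All 10 genes passed the filter on low FPKM and were above 0 in each library. *Vegfa* had the highest level of the set, with a mean of 66.6 ± 16.5 FPKM (SD, n = 6), followed by *Vegfb* at 41.3 ± 8.43 FPKM. The 2 endothelial junction genes and *Epas1* lay between 10.5 and 20.9 FPKM in each library. The receptors were lower, at 7.61 ± 1.00 FPKM for *Flt1*, 5.40 ± 1.20 FPKM for *Kdr* and 5.05 ± 0.458 FPKM for *Tek* (SD, n = 6), and *Hif1a* and *Angpt1* were at 4.39 ± 0.496 and 4.31 ± 1.49 FPKM. In this order, neighbouring genes overlapped in their ranges over the 6 libraries except at 2 steps, from *Vegfb* to *Epas1* and from *Cdh5* to *Flt1*. *Vegfa* was above *Vegfb* within each of the 6 libraries although their ranges overlapped.

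**Figure D1:**
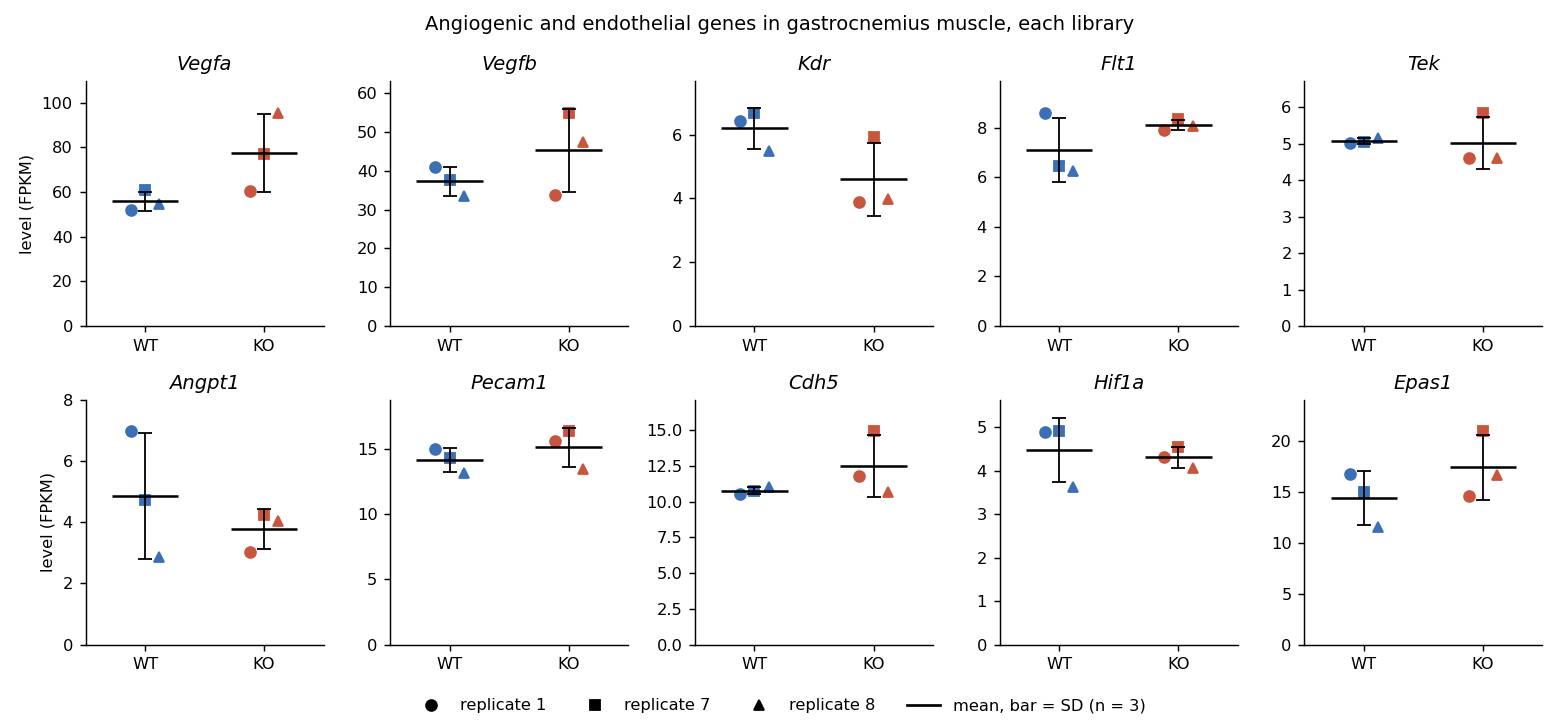
Level (FPKM, y axis from 0) of each of the 10 genes in the 3 WT (blue) and 3 KO (red) libraries, where the symbol gives the replicate number, the line the mean and the bar the SD. The libraries of the genotypes overlap for each gene, *Vegfa* among them, with 52.1 to 60.7 FPKM in WT and 60.2 to 95.3 in KO muscle.

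Between the genotypes, 0 of the 10 genes had an adjusted p under 0.05, against 0.251% of the 12334 tested genes that were higher and 0.073% that were lower in the KO mice by that rule (limma, Benjamini-Hochberg adjustment). At an unadjusted p under 0.05, *Vegfa* was higher and *Kdr* was lower, 1 gene in each direction, while 15.3% of all tested genes were higher and 10.9% were lower at that level. The count of 1 in 10 in each direction is thus close to the background. The libraries of the 2 genotypes overlapped for 10 of 10 genes, whereas they did not overlap for 18.3% of all tested genes in the higher and 16.2% in the lower direction. The median log2 fold change was 0.15 for the 10 genes and 0.010 for all tested genes.

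*Vegfa* (ENSMUSG00000023951, chromosome 17, 46016993 to 46032369 of GRCm38, minus strand) encodes the main ligand of blood vessel growth. WT mice 1, 7 and 8 had 52.1, 60.7 and 54.4 FPKM of *Vegfa*, and KO mice 1, 7 and 8 had 60.2, 76.9 and 95.3 FPKM. KO replicates 7 and 8 lay above all WT libraries, and KO replicate 1 lay just under WT replicate 7. KO muscle had 77.5 ± 17.6 FPKM against 55.7 ± 4.45 FPKM in WT muscle (SD, n = 3 each), which gave a log2 fold change of 0.45 (standard error, SE, 0.17, 95% interval 0.050 to 0.86, unadjusted p = 0.0324, adjusted p = 0.159). Without KO replicate 8 the log2 fold change of *Vegfa* was 0.29, and without KO replicate 1 it was 0.62. The table gives 1 value per gene, so the isoforms of VEGF-A were not resolved.

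*Vegfb* (ENSMUSG00000024962, chromosome 19, 6982473 to 6987651) encodes VEGF-B, a ligand of VEGFR1 but not of VEGFR2. WT mice 1, 7 and 8 had 40.9, 37.5 and 33.4 FPKM, while KO mice 1, 7 and 8 had 33.7, 54.9 and 47.3 FPKM. KO replicates 7 and 8 were higher than each WT library, but KO replicate 1 lay near the lowest WT library. The genotypes did not differ beyond this scatter (log2 fold change 0.26, SE 0.19, adjusted p = 0.410), and the 95% interval from -0.18 to 0.69 includes both a lower and a higher level. The fold change depended on single mice, from 0.10 without KO replicate 7 to 0.46 without KO replicate 1.

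The 2 VEGF receptors lay on opposite sides of 0. *Kdr* (ENSMUSG00000062960, chromosome 5, 75932827 to 75978458), which encodes the main signaling receptor VEGFR2, had 6.43, 6.68 and 5.47 FPKM in WT mice 1, 7 and 8 but 3.90, 5.92 and 3.98 FPKM in KO mice 1, 7 and 8. KO replicates 1 and 8 lay under all WT libraries, and KO replicate 7 lay between the WT libraries. Its mean was 4.60 ± 1.14 FPKM in KO against 6.19 ± 0.637 FPKM in WT muscle (SD, n = 3 each), with a log2 fold change of -0.44 (SE 0.19, 95% interval -0.88 to -0.0088, unadjusted p = 0.0465, adjusted p = 0.185). The log2 fold change of *Kdr* was negative whichever library was left out, from -0.63 without KO replicate 7 to -0.34 without KO replicate 1. In bulk muscle, fewer endothelial cells and less RNA per endothelial cell cannot be told apart.

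*Flt1* (ENSMUSG00000029648, chromosome 5, 147561604 to 147726011) encodes VEGFR1. WT mice 1, 7 and 8 had 8.60, 6.45 and 6.26 FPKM, and the KO mice, in the same order, had 7.92, 8.34 and 8.08 FPKM. The KO libraries were close to each other, and the highest value of all was that of WT replicate 1. The log2 fold change was 0.20 (SE 0.15, 95% interval -0.14 to 0.54, adjusted p = 0.401), and it was 0.35 (adjusted p = 0.163) without WT replicate 1. The soluble and the membrane-bound forms of VEGFR1 come from the same gene and were not separated here.

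**Figure D2:**
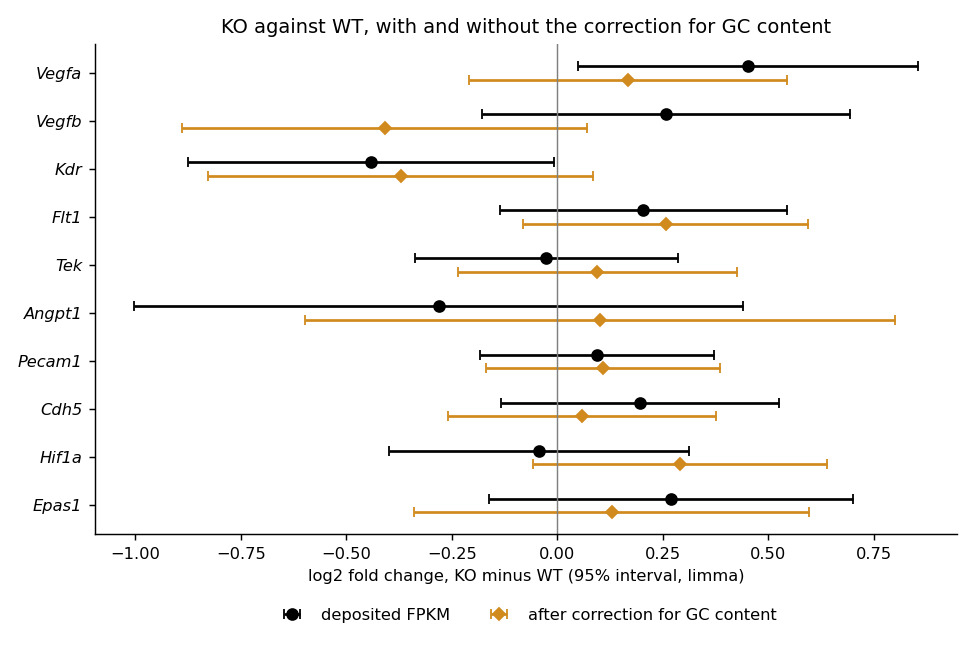
Log2 fold change of KO against WT (x axis) for the 10 genes with 95% intervals from limma, from the deposited FPKM (black circles) and after each library was corrected for GC content (orange diamonds). *Vegfa* and *Kdr* are the 2 genes with black intervals clear of 0, each orange interval includes 0, and *Vegfb* changes sign from 0.26 to -0.41.

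In the TIE2 axis, neither gene differed beyond its spread. *Tek* (ENSMUSG00000006386, chromosome 4, 94739289 to 94874976) had 5.02, 5.04 and 5.17 FPKM in WT mice 1, 7 and 8, and 4.60, 5.84 and 4.60 FPKM in KO mice 1, 7 and 8. KO replicates 1 and 8 were lower than the WT libraries and KO replicate 7 was higher, so that the mean hardly differed (log2 fold change -0.026, 95% interval -0.34 to 0.29, adjusted p = 0.920). *Angpt1* (ENSMUSG00000022309, chromosome 15, 42424723 to 42676977), the ligand that activates TIE2, varied most among the WT libraries, at 6.97, 4.73 and 2.85 FPKM in replicates 1, 7 and 8. The KO libraries, at 3.02, 4.24 and 4.05 FPKM, lay inside that range. The log2 fold change of *Angpt1* was -0.28 (SE 0.31, adjusted p = 0.586) with all libraries, 0.021 without WT replicate 1 and -0.61 without WT replicate 8, so the WT libraries decided its size and its sign.

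*Pecam1* (ENSMUSG00000020717, chromosome 11, 106654217 to 106750628) had 15.0, 14.3 and 13.2 FPKM in WT mice 1, 7 and 8, and 15.6, 16.4 and 13.5 FPKM in KO mice 1, 7 and 8. Its product PECAM1 also stands on leukocytes and platelets. *Cdh5* (ENSMUSG00000031871, chromosome 8, 104101625 to 104144511), which is restricted to endothelial cells, varied little among the WT mice, with 10.5, 10.8 and 11.0 FPKM, and more among the KO mice, with 11.8, 14.9 and 10.7 FPKM, of which KO replicate 7 was the highest and KO replicate 8 lay within the WT libraries. The log2 fold changes were 0.094 for *Pecam1* (95% interval -0.18 to 0.37, adjusted p = 0.637) and 0.20 for *Cdh5* (95% interval -0.13 to 0.53, adjusted p = 0.405). On a linear scale these intervals run from 0.881 to 1.29 times the WT level for *Pecam1* and from 0.912 to 1.44 times for *Cdh5*.

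The hypoxia factors differed less between the genotypes than among their own libraries. *Hif1a* (ENSMUSG00000021109, chromosome 12, 73901375 to 73947530) had 4.89, 4.90 and 3.63 FPKM in WT mice 1, 7 and 8 and, inside that range, 4.31, 4.55 and 4.06 FPKM in KO mice 1, 7 and 8 (log2 fold change -0.043, 95% interval -0.40 to 0.31, adjusted p = 0.882). *Epas1* (ENSMUSG00000024140, chromosome 17, 86753700 to 86833410), which is the more abundant of both genes and is expressed in endothelial cells, had 16.8, 14.9 and 11.6 FPKM in WT mice 1, 7 and 8, and 14.6, 20.9 and 16.7 FPKM in KO mice 1, 7 and 8. KO replicate 7 was the highest of these, and the other KO libraries lay within the WT range. Its log2 fold change was 0.27 (SE 0.18, 95% interval -0.16 to 0.70, adjusted p = 0.383). *Epas1* was above *Hif1a* in each library, by a ratio of 3.22 ± 0.196 in WT and 4.03 ± 0.601 in KO muscle (SD, n = 3), with overlap between the genotypes. Antisense genes lie across *Hif1a*, *Angpt1* and *Cdh5* in the annotation, and the one at *Hif1a* was at most at 0.15 FPKM. On the same strand, *Gm49321* lies across *Hif1a* and *AC096777.1* across *Epas1*. Neither has a deposited level, so fragments shared with them were not determined.

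To set each gene beside the endothelial RNA of the same library, the mean log2 level of *Pecam1* and *Cdh5* was subtracted from its log2 level. On this scale WT mice 1, 7 and 8 had -0.96, -0.88 and -1.12 for *Kdr*, and KO mice 1, 7 and 8 had -1.78, -1.38 and -1.57. Each KO library was lower than each WT library. *Kdr* thus stood at 50.4% of the mean of both junction genes in WT and at 33.5% in KO muscle, a log2 difference of -0.59 (two-sided exact permutation test, p = 0.1, the lowest value possible with 3 against 3; adjusted over the 8 genes compared, 0.4). Leaving out single libraries gave -0.68 to -0.49 for *Kdr*. It was -0.56 against the mean of *Flt1*, *Tek*, *Pecam1* and *Cdh5*, -0.79 against 29 other endothelial genes and -0.45 after correction for GC content, and with each of these references the genotypes did not overlap. Of all tested genes, 20.1% were lower and 8.95% higher without overlap on the scale relative to *Pecam1* and *Cdh5*, and 8.4% were lower after correction for GC content. Against the 5 endothelial genes of the set 10.4% were lower without overlap, and against the 29 further ones 32.2%, so this separation of *Kdr* is not rare in the table.

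*Tek* was also lower in all KO libraries relative to *Pecam1* and *Cdh5*, at -1.31, -1.28 and -1.20 in the WT and -1.54, -1.40 and -1.37 in the KO replicates. The log2 difference of -0.17 for *Tek* was -0.039 against the mean of the other 4 endothelial genes of the set and 0.012 after correction for GC content, and the libraries overlapped in both. Against the 29 further endothelial genes it was -0.37, with all KO libraries again lower. *Flt1* differed by 0.059 on this scale, with a range from -0.031 to 0.19 with each library left out, by 0.25 against the other endothelial genes of the set and by -0.14 against the 29 further ones. *Vegfa*, relative to both junction genes, was at 2.04, 2.28 and 2.17 in the WT and at 2.14, 2.29 and 2.98 in the KO replicates. KO replicate 8 stood apart, and the log2 difference of 0.31 was 0.053 without it. For *Vegfa* the difference was 0.45 against the mean of the 5 endothelial genes of the set, with no overlap (as for 13.7% of all other tested genes in the higher direction), 0.11 against the 29 further endothelial genes and 0.084 after correction for GC content, both with overlap. The differences of *Vegfb*, *Angpt1*, *Hif1a* and *Epas1* were 0.11, -0.43, -0.19 and 0.12 with overlapping libraries (exact permutation test, two-sided, p = 0.3 to 0.7). Against the 29 further endothelial genes, *Vegfb* and *Epas1* were reversed, to -0.088 and -0.076, and *Hif1a* was lower in all KO libraries, by -0.39.

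**Figure D3:**
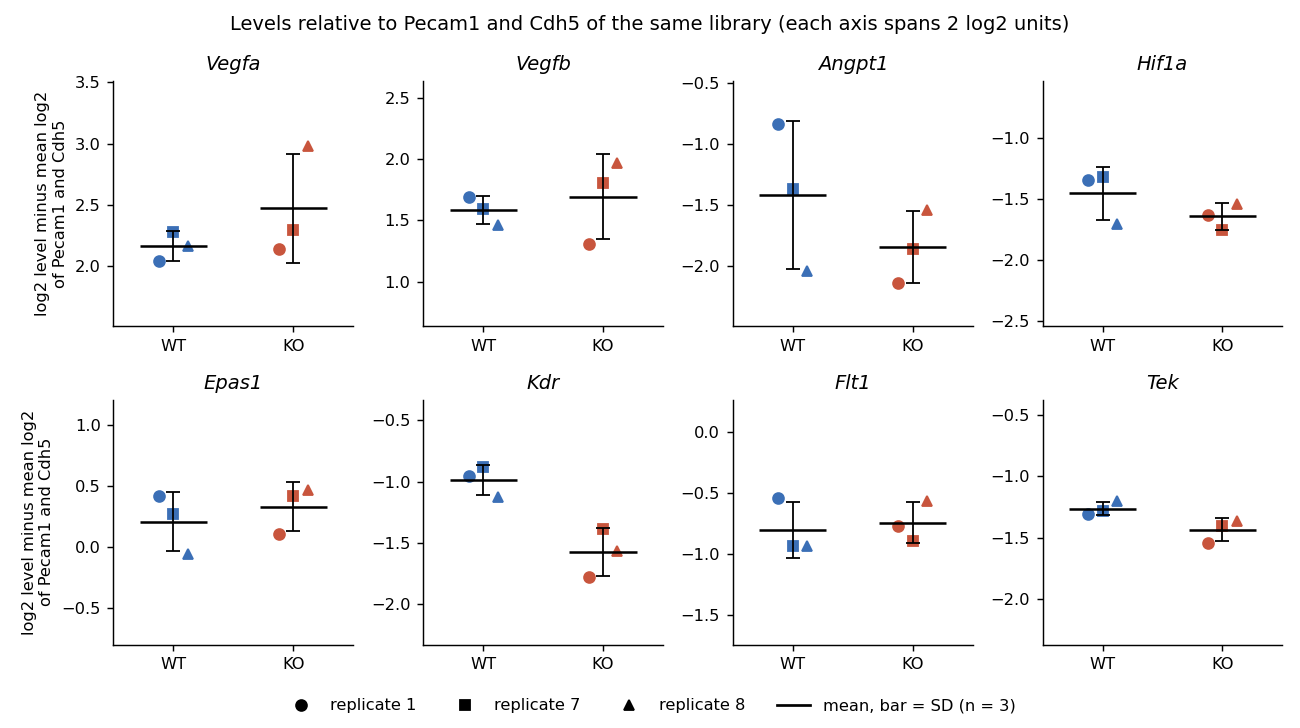
Log2 level of 8 genes minus the mean log2 level of *Pecam1* and *Cdh5* in the same library (y axis, each spanning 2 log2 units) for 3 WT (blue) and 3 KO (red) libraries, with the mean and SD. *Kdr* lies between -1.12 and -0.88 in WT and between -1.78 and -1.38 in KO muscle, and *Tek* is the other gene with no overlap.

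Ratios between pairs of these genes within a library were looked at after their values were seen, for 6 pairs. The ratio of *Flt1* to *Kdr* was 1.34, 0.966 and 1.14 in WT mice 1, 7 and 8 but 2.03, 1.41 and 2.03 in KO mice 1, 7 and 8. The ratio of the ligand *Vegfa* to its receptor *Kdr* was 8.10, 9.09 and 9.94 in the WT and 15.5, 13.0 and 23.9 in the KO replicates. For both ratios, and for *Tek* to *Kdr* (0.827 ± 0.103 in WT and 1.11 ± 0.105 in KO muscle, SD, n = 3), the lowest KO library was higher than the highest WT library. No p-value is given for these pairs, since they were picked after the values were seen. These 3 ratios share *Kdr*, whose mean was lower in KO muscle, so they are not separate results. How many of all tested genes would separate relative to *Kdr* was not determined. The ratios of *Vegfa* to *Vegfb*, of *Angpt1* to *Tek* and of *Epas1* to *Hif1a* overlapped between the genotypes.

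Fold changes in this table move with the GC content of the transcripts (Spearman's rho = 0.70 over 11985 genes of the same libraries, given as a description), and the 10 genes cover 39.1% GC for *Angpt1* to 61.1% GC for *Vegfb*. Tested genes within 1 percentage point of the GC content of *Vegfa* (54.7%) had a median log2 fold change of 0.28, beside 0.45 for *Vegfa* itself. Those near *Vegfb* had a median of 0.69, beside 0.26 for *Vegfb*, and those near *Kdr* (48.6% GC) had a median of -0.078, beside -0.44 for *Kdr*. With this trend removed from each library, the log2 fold change was 0.17 for *Vegfa* (95% interval -0.21 to 0.54), -0.37 for *Kdr* (-0.83 to 0.085) and -0.41 for *Vegfb* (-0.89 to 0.071), and 0 of the 10 genes had an unadjusted p under 0.05. Of all genes in this fit, 5.72% were higher and 5.47% lower at that level. The sign of *Vegfb*, *Tek*, *Angpt1* and *Hif1a* was reversed by the correction.

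**Figure D4:**
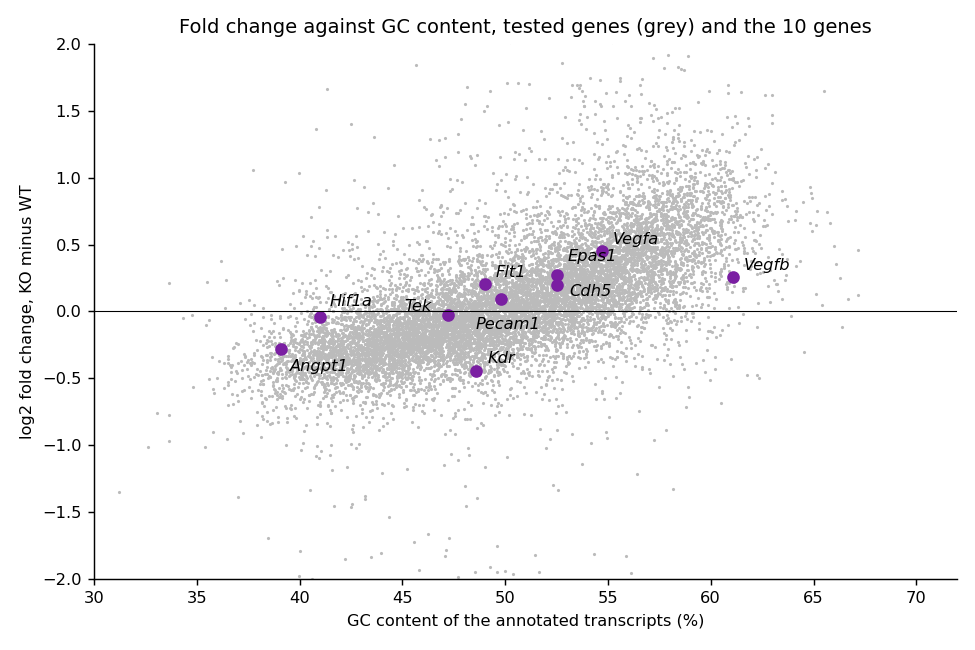
Log2 fold change of KO against WT (y axis) against the GC content of a gene's annotated transcripts in percent (x axis), for 11985 tested genes in grey, of which 147 lie outside the axes, and the 10 genes in purple. *Vegfa* lies within the rising cloud, while *Kdr*, at -0.44, lies under most genes of its GC content and *Vegfb* under most of its own.

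Other genes of these pathways were followed through lists by function. In the VEGF family, 6 further genes were tested (*Pgf*, *Vegfc*, *Figf*, *Flt4*, *Nrp1* and *Nrp2*), 0 had an unadjusted p under 0.05 and the median log2 fold change was 0.13. *Pgf*, which encodes the VEGFR1 ligand placental growth factor, had 1.25, 1.16 and 0.843 FPKM in WT mice 1, 7 and 8 but 1.36, 1.62 and 1.70 FPKM in KO mice 1, 7 and 8, without overlap (log2 fold change 0.50, adjusted p = 0.194, and 0.13 after correction for GC content). *Vegfc* and *Figf*, which encode the lymphatic growth factors VEGF-C and VEGF-D, had log2 fold changes of -0.35 and 0.22 (adjusted p = 0.674 and 0.673). Of the angiopoietin and TIE genes, 1 of 3 had an unadjusted p under 0.05 (15.3% of all tested genes were higher and 10.9% lower at that level). This was *Tie1*, the orphan receptor that pairs with TIE2, with 2.64, 2.92 and 3.04 FPKM in WT mice 1, 7 and 8 but 4.07, 6.39 and 4.84 FPKM in KO mice 1, 7 and 8. *Tie1* did not overlap between the genotypes, and its log2 fold change of 0.79 (SE 0.18, adjusted p = 0.0750) was 0.30 after correction for GC content. *Angpt2*, the ligand that opposes angiopoietin-1, and *Ptprb*, the phosphatase VE-PTP that acts on TIE2, had log2 fold changes of -0.34 and -0.087 (adjusted p = 0.513 and 0.735).

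Of 29 further endothelial genes tested, 23 had a positive and 6 a negative fold change, 11 had an unadjusted p under 0.05 and were higher, 0 were lower at that level and 0 had an adjusted p under 0.05 (limma), beside 15.3% of all tested genes higher and 10.9% lower at the unadjusted level. Over all 30 genes of the list, with the untested *Tal1*, the summed level was 651 to 1002 FPKM in WT and 782.5 to 1079 FPKM in KO muscle. Each gene was above 0 in some library. Within this sum, *Fabp4* alone had 284 ± 108 FPKM in WT and 334 ± 102 FPKM in KO muscle (SD, n = 3 each). *Nos3*, the endothelial nitric oxide synthase, had 1.49 ± 0.236 FPKM in KO against 0.669 ± 0.0566 FPKM in WT muscle (SD, n = 3 each; log2 fold change 1.04, adjusted p = 0.0716). *Gpihbp1*, which holds lipoprotein lipase on capillaries, was at 17.2 ± 2.08 FPKM in WT and 27.7 ± 0.889 FPKM in KO muscle, and *Rasip1*, a regulator of vessel lumens, at 1.48 ± 0.0262 and 2.75 ± 0.248 FPKM (SD, n = 3). Their log2 fold changes were 0.69 and 0.84 (adjusted p = 0.0667 for each), and after correction for GC content 0.35 and 0.072, with 0.50 for *Nos3*. The list's median log2 fold change of 0.37 was 0.14 after this correction, and 4 rather than 11 of its genes then passed the unadjusted threshold, beside 5.72% of all genes that were higher in this fit. Its tested genes had a median GC content of 54.2%. Several of its genes, such as *Fabp4*, *Cd36* and *Cav1*, are also expressed in adipocytes. These examples had log2 fold changes of 0.26, -0.087 and 0.055, and the part of adipocytes in the list was not tested.

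The partners and oxygen sensors of the hypoxia factors showed 1 of 7 genes with an unadjusted p under 0.05, *Egln2*, a prolyl hydroxylase, with 25.5 ± 1.22 FPKM in KO against 15.8 ± 3.58 FPKM in WT muscle (SD, n = 3 each; log2 fold change 0.71, adjusted p = 0.0794, and 0.049 after correction for GC content). The count was 2 without WT replicate 1 or KO replicate 7. After correction for GC content, 0 of the 7 genes were higher and 1 was lower at an unadjusted p under 0.05, beside 5.47% of all genes lower. This was *Egln1*, with a log2 fold change of 0.057 before and -0.32 after the correction (limma, unadjusted p = 0.0340). With the replicate block as well, 0 were lower at that level. *Hif3a*, a further alpha subunit, and *Vhl*, which targets the alpha subunits for degradation, had log2 fold changes of 0.65 and -0.21 (adjusted p = 0.201 and 0.433). Of 19 hypoxia target genes tested, 10 were higher and 9 lower, 3 and 1 of them at an unadjusted p under 0.05, with a median log2 fold change of 0.00042. Of all tested genes, 15.3% were higher and 10.9% lower at that level. The count of 3 was 1 without WT replicate 1, WT replicate 7 or KO replicate 7 and 5 without WT replicate 8. *Slc2a1*, which encodes the glucose transporter GLUT1, had 1.46, 1.51 and 1.64 FPKM in WT mice 1, 7 and 8 but 2.59, 3.47 and 2.91 FPKM in KO mice 1, 7 and 8 (log2 fold change 0.91, adjusted p = 0.0667, and 0.63 after correction for GC content). The glycolytic gene *Pgk1* was lower in all KO libraries, with 570 ± 41.4 FPKM in WT and 439 ± 38.7 FPKM in KO muscle (SD, n = 3; log2 fold change -0.38, adjusted p = 0.109), while *Eno1*, of the same pathway, was higher in all of them (log2 fold change 0.50, adjusted p = 0.148). After correction for GC content, *Pgk1* and *Eno1* had -0.31 and 0.21. In that fit 13 of the targets were higher and 6 lower, with 1 in each direction at an unadjusted p under 0.05. The targets did not all share a direction in either fit.

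Of 18 other angiogenic signals tested, 18 were higher in the KO mice, 5 of them at an unadjusted p under 0.05 and 0 at an adjusted p under 0.05. Of all 12334 tested genes, 6294 were higher, and 15.3% were higher at the unadjusted level. Without the filter on low FPKM, 18 of 20 genes of the list were higher and 2 lower, with 3 higher at an unadjusted p under 0.05. The 2 lower ones were *Apln* and *Esm1*, which lay under the filter. *Fgfr1*, a receptor of fibroblast growth factors, had a log2 fold change of 0.43 (adjusted p = 0.108), the venous receptor *Ephb4* of 0.61 (adjusted p = 0.152) and *Thbs1*, which encodes the inhibitor thrombospondin-1, of 0.90 (adjusted p = 0.161), and for each of these 3 genes the genotypes were apart. After correction for GC content, these were 0.14, 0.0998 and 0.90, and 13 of the 18 genes were higher. In that fit 2 of the genes passed the unadjusted threshold, *Thbs1* and *Thbs2* (log2 fold change 0.90 and 0.84), beside 5.72% of all genes that were higher. The list's median log2 fold change of 0.45 became 0.10. Leaving out WT replicate 8 reduced the count of 5 to 1, and leaving out WT replicate 7 or KO replicate 7 reduced it to 2. Among the lymphatic markers, 0 of 4 genes had an unadjusted p under 0.05, with log2 fold changes of -0.45 for *Pdpn*, 0.36 for *Lyve1* and -0.58 for *Reln* (adjusted p = 0.192, 0.563 and 0.488).

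**Figure D5:**
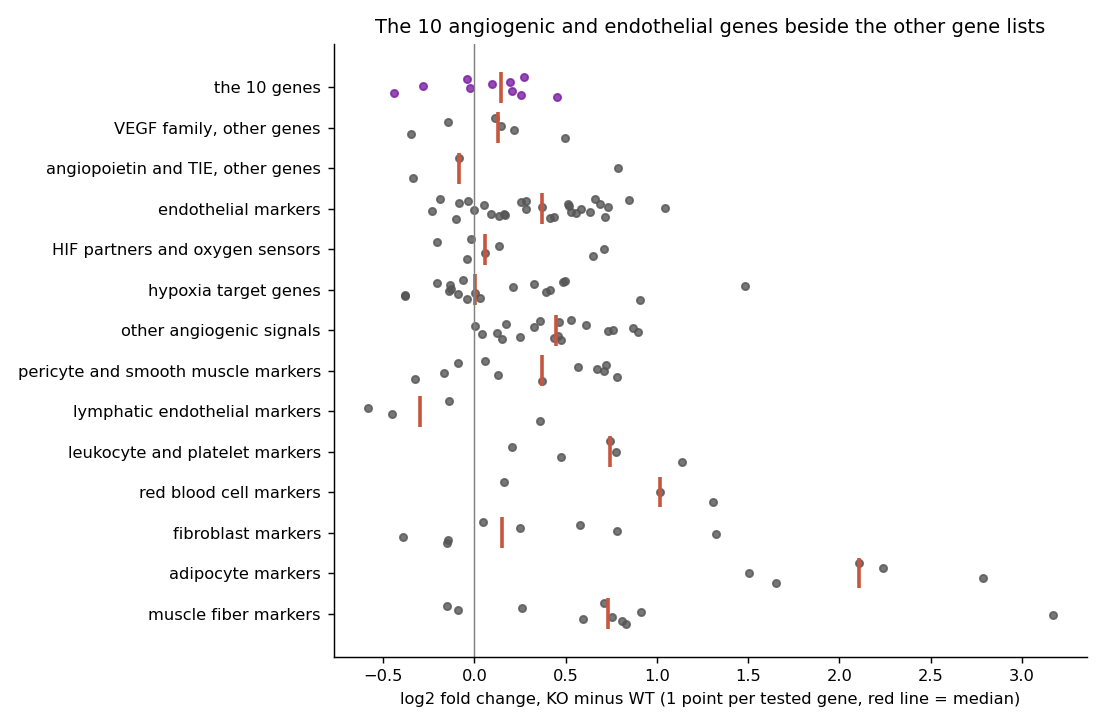
Log2 fold change of KO against WT (x axis) for each tested gene of the set (purple) and of 13 other lists (grey), with the median of each list as a red line. The set has a median of 0.15, the further endothelial genes 0.37, the hypoxia targets about 0 and the adipocyte markers 2.11.

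Markers of other cell types moved between the libraries as well, and their part in the results above was not tested. Beside the counts of the lists that follow, 15.3% of all tested genes were higher and 10.9% lower at an unadjusted p under 0.05. After correction for GC content these shares were 5.72% and 5.47%. The 5 adipocyte markers all had positive fold changes, 4 with an unadjusted p under 0.05, and their summed level was 34.8, 7.35 and 18.9 FPKM in WT replicates 1, 7 and 8 and 44.5, 167.5 and 44.3 FPKM in KO replicates 1, 7 and 8. The count of 4 was 1 without WT replicate 7 and 2 without KO replicate 7. After correction for GC content it was 4, and 1 with the replicate block as well. The examples *Plin1*, *Cidec* and *Cfd* had log2 fold changes of 2.79, 2.24 and 2.11 (adjusted p = 0.0852, 0.122 and 0.107). KO replicate 7, which had the highest sum, also had the highest *Vegfb*, *Tek*, *Pecam1*, *Cdh5* and *Epas1* of all 6 libraries. Without it, the log2 fold changes were 0.45 for *Vegfa*, -0.63 for *Kdr*, 0.10 for *Vegfb*, -0.14 for *Tek*, 0.037 for *Pecam1*, 0.061 for *Cdh5* and 0.13 for *Epas1*. The further endothelial genes then had a median of 0.21, with 9 at an unadjusted p under 0.05.

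Pericyte and smooth muscle markers, a list chosen for the outer cells of vessels, were at 144.8 to 164 FPKM in sum in WT and at 142 to 161 FPKM in KO muscle, and 4 of 11 tested genes had an unadjusted p under 0.05, all higher, while 3 of the 11 had negative fold changes. Without WT replicate 7 the count was 1, and without WT replicate 1, WT replicate 8 or KO replicate 7 it was 2. *Acta2*, *Tagln* and *Notch3* had log2 fold changes of 0.67, 0.72 and 0.71 (adjusted p = 0.139, 0.0834 and 0.158), and 0.68, 0.64 and 0.11 after correction for GC content. *Rgs5*, a pericyte gene, was lower in all KO libraries (log2 fold change -0.33, adjusted p = 0.283), and *Abcc9* and *Mcam* had -0.17 and -0.090 (adjusted p = 0.547 and 0.704). Within the list's sum, *Abcc9* had a mean of 50.25 FPKM in WT and 45.03 FPKM in KO muscle, and the cells it came from were not determined. After the correction the list's median of 0.37 was 0.064, and 6 genes were higher and 5 lower, 2 and 1 of them at an unadjusted p under 0.05. The 1 lower gene at that level was *Mcam*, with a log2 fold change of -0.38 (limma, unadjusted p = 0.00691). Red blood cell markers summed to 64.9 to 98.2 FPKM in WT and 112.5 to 228 FPKM in KO muscle, and 2 of 3 tested genes were higher at an unadjusted p under 0.05, *Hba-a1* and *Hba-a2*, which are near-identical copies (log2 fold change 1.31 and 1.02, adjusted p = 0.0750 and 0.0954). The corrected values were 0.84 and 0.57, and 1 of the 3 genes then passed the unadjusted threshold. The third, *Alas2*, had a log2 fold change of 0.16 (adjusted p = 0.559). Leukocyte and platelet markers summed to 18.8 to 32.9 FPKM in WT and 22.5 to 53.5 FPKM in KO muscle, with *Gp9* listed at 0 in each library. Of the 5 tested, 1 had an unadjusted p under 0.05 (*Cd14*, log2 fold change 0.78, adjusted p = 0.159), while *Cd68* and *Pf4* had log2 fold changes of 1.14 and 0.74 (adjusted p = 0.257 and 0.323). The count was 0 without KO replicate 7 or KO replicate 8 and 2 without WT replicate 8 or KO replicate 1. After correction for GC content the count was also 0. Fibroblast markers summed to 445.5 to 643 FPKM in WT and 431 to 588 FPKM in KO muscle, 1 of 8 genes had an unadjusted p under 0.05 (*Col1a1*, log2 fold change 1.33, adjusted p = 0.173), and *Col1a2* and *Pi16* had log2 fold changes of 0.78 and 0.58 (adjusted p = 0.335 and 0.342). The list had 5 positive and 3 negative fold changes with a median of 0.15. The negative ones were *Pdgfra* (-0.15), *Dcn* (-0.15) and *Lum* (-0.39). The count of 1 was 0 without WT replicate 7, WT replicate 8 or KO replicate 7 and 3 without KO replicate 8. After correction for GC content it was 0.

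Muscle fiber markers made up the largest sums, at 24222 to 34967 FPKM in WT and 38579 to 40954 FPKM in KO muscle, as the tissue label implies, and *Myh4* was listed at 0 in each library. Of 10 tested, 4 were higher at an unadjusted p under 0.05, among them *Des*, *Myh2* and *Acta1* (log2 fold change 0.71, 0.75 and 0.83, adjusted p = 0.0750, 0.0932 and 0.104), while *Myoz1* and *Pvalb* had -0.093 and -0.15. After correction for GC content, 2 of the 10 passed the unadjusted threshold, the median of 0.73 was 0.41, and *Des*, *Myh2* and *Acta1* had 0.40, 0.61 and 0.36. Without WT replicate 7 the count was also 2. The deleted gene, *Kcnab2*, had 0.233, 0.10 and 0.110 FPKM in WT mice 1, 7 and 8 and 0.0151 FPKM in KO mouse 7, and the table lists it at 0 for the other KO mice. *Kcnab2* was under the filter of the test, and its levels stand for few fragments (1 fragment per kilobase was about 0.052 FPKM in WT replicate 7). The depth estimated from the spacing of low FPKM values was 19200000 to 20170000 fragments for the WT and 13960000 to 18120000 fragments for the KO libraries, and the fewest fragments for any of the 10 genes, about 42.1 per kilobase, were those of *Angpt1* in KO replicate 1.

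Over the 6 libraries, the standardized levels of *Kdr*, *Flt1*, *Tek*, *Pecam1* and *Cdh5* were averaged into 1 profile, which was highest in KO replicate 7 (1.24) and lowest in KO replicate 8 (-0.65). Of 10668 genes compared, the 5 with the most similar pattern were *Snx22*, *Abhd14b*, *Ift140*, *Tspan12* and *Pfkp* (Pearson's r = 0.995 to 0.987), and 0 of these are in the list of further endothelial genes. Those endothelial genes had a median r of 0.50 over 28 genes, against -0.12 for all genes compared. With 6 points, of which KO replicate 7 is the farthest from the others, these values only describe the libraries.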

How the data were processed

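RNA-seq libraries of GAS muscles from 3 WT and 3 KO mice were grouped by the genotype in their labels. Per the labels and the study's methods, the authors prepared stranded mRNA libraries, used TopHat to align the reads to GRCm38 and Cufflinks to estimate FPKM per gene; the versions and the release of the annotation are not given in the sources used here. The deposited table holds FPKM without counts, and an FPKM of exactly 0 can be a failed estimate.

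Genotypes were compared on log2(FPKM + 0.1) by limma 3.58.1 (R 4.3.3, variance trend) in the 12334 genes whose mean reached 0.5 FPKM, and p-values were adjusted over all of them by the Benjamini-Hochberg method. On this scale the change of low genes is understated. Single values were compared with exact permutation tests, for which 3 against 3 cannot give a p under 0.1. The p-values measure the spread between these mice.

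GC content, length and coordinates came from GENCODE vM21 (GRCm38), with GC content known for 97.2% of the tested genes. For the correction, the difference between a library and the mean of all libraries was fitted against GC content by loess (span 0.3) and the curve was subtracted. Depth was estimated from low FPKM of genes with 1 transcript of 1500 to 6000 bases, where 92.2% to 95.8% of values lay within 0.15 of a whole fragment. No pair of libraries shared more than 1 identical value among 14983 genes above 0 in each.

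The 10 genes and the 13 gene lists were chosen with earlier results of these data known. From each list, the 3 tested genes with the lowest p are named, as well as genes named for a count or as examples. Genes like the endothelial profile had a mean of at least 1 FPKM. The scripts were tested on simulated data. Alternatives covered the pseudocount, filter, scaling, variance model, array weights, replicate block, GC content, length, genes listed at 0 or sharing a symbol, and each library left out. Plots were made in Python 3.11.15 (matplotlib 3.10.9).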

Additional observations from a re-analysis of the deposited data

How the results depend on the processing

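With 20 alternative settings, 0 of the 10 genes had an adjusted p under 0.05 in 19, and 3 of them did with limma's array weights: *Vegfa* (0.49, adjusted p = 0.0403), *Kdr* (-0.62, adjusted p = 0.0164) and *Flt1* (0.31, adjusted p = 0.0480). Array weights also gave 1863 higher and 1284 lower genes over the whole table and 41 called genes of the other lists. *Vegfa*, *Kdr*, *Flt1*, *Pecam1*, *Cdh5* and *Epas1* kept their direction in all 20. At an unadjusted p under 0.05, the count of 2 among the 10 genes was 1 with a pseudocount of 1 or without the filter, 0 without the variance trend or with the correction for length or for GC content (also with the replicate block), and 0 to 2 with each library left out. It was 0 without WT replicate 7 or KO replicate 8, and 1 without WT replicate 1 or KO replicate 7.

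Correction for GC content, with or without the replicate block, turned the log2 fold change to -0.41 for *Vegfb*, 0.095 for *Tek*, 0.10 for *Angpt1* and 0.29 for *Hif1a*. Leaving out a library turned that of *Tek* to 0.030 to 0.031 (KO replicates 1 and 8), of *Angpt1* to 0.021 (WT replicate 1; range -0.61 to 0.021) and of *Hif1a* to 0.027 to 0.028 (WT replicates 1 and 7; range -0.18 to 0.028). Relative to endothelial genes, GC correction gave -0.49 for *Vegfb*, 0.21 for *Hif1a* and 0.012 for *Tek*. The mean of the 29 further endothelial genes as reference gave -0.39 for *Hif1a*, -0.79 for *Kdr* and -0.37 for *Tek*, each without overlap, and 0.11 for *Vegfa*, -0.088 for *Vegfb*, -0.076 for *Epas1* and -0.14 for *Flt1*. The mean of the other endothelial genes of the set gave -0.039 for *Tek*, 0.25 for *Flt1* and, without overlap, 0.45 for *Vegfa*.

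Over the whole table, the 31 higher and 9 lower genes became 7 and 4 with a pseudocount of 1, 9 and 11 without the filter, 20 and 9 with centred libraries, 11 and 7 with quantile normalization, 12 and 7 without the variance trend, 11 and 8 with the length correction, 6 and 8 with GC correction, 1 and 0 without genes listed at 0 (1952 and 1299 at an unadjusted p under 0.05), and 6 to 19 higher and 5 to 19 lower with each library left out. The replicate block gave 6 and 7, and 5 and 7 with GC correction. Libraries with the same number did not deviate together (correlations of -0.080 to 0.034), so the numbers were not used as pairs. The cause of these shifts was not tested.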

Other observations

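*Apln*, which encodes the endothelial tip cell ligand apelin, was under the filter of the test and was picked after its values were seen. WT mice 1, 7 and 8 had 0.307, 0.244 and 0.341 FPKM, while KO mice 1, 7 and 8 had 0.201, 0.172 and 0.166 FPKM, a separation at a level of few fragments. The hypoxia and stress gene *Ddit4*, also picked after its values were seen, varied widely among the WT libraries, at 3.53, 2.67 and 16.1 FPKM, with 9.39, 15.3 and 24.1 FPKM in the KO libraries (limma, log2 fold change 1.48, 95% interval -0.046 to 3.01).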
